A study of Mus musculus with 7 samples.

Results

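mmu-miR-378, its star strand mmu-miR-378*, mmu-miR-103 and mmu-miR-107 are miRNAs whose hairpins lie inside genes of energy metabolism, and they were measured in mouse kidney. They are 4 of the 696 mouse miRNAs on the array, taken by exact name. They were chosen by host gene and also selected on measured values, since their log2 fold changes between the deposited label groups on these same arrays were already known. Those changes are therefore given as a description with no p-value. Whether they pass the threshold set for all miRNAs is stated as a count or a side of that threshold, and nothing is supported with it. Kidney RNA was labelled with Cy3 and hybridized to 7 Agilent arrays of 1 colour, of which 3 carry the label treated (replicates 1, 3 and 4) and 4 the label non-treated (replicates 1 to 4). All mice were C57BL/6 males of 9 to 12 weeks with no transgene named, had surgery under pentobarbital at 50 mg/kg, and gave a kidney after 28 days. The operation was either ligation of the left ureter, which obstructs the kidney and leads to fibrosis, or a sham procedure in which the ureter was exposed but not tied. Which operation a label denotes is not stated in the deposited record. It gives S numbers to the arrays labelled treated and its title names sham kidneys. Every miRNA that the study lists as changed in obstructed kidneys had the opposite sign by label here. Sham kidneys under the label treated would give such signs. On that reading miR-378, miR-378* and miR-107 were lower in obstructed kidneys. Directions below keep the deposited labels, with the non-treated value subtracted from the treated value. The study counts its array groups in mice, and it had more mice in a group than the arrays labelled treated analysed here. The labels do not number the mice, and p-values measure the spread between these arrays.

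A miRNA is a short RNA cut from a hairpin transcript, and it lowers the output of mRNAs that pair with its seed, the stretch near its 5′ end. miR-378 and miR-378* are opposite strands of a hairpin inside Ppargc1b, which encodes PGC-1β, a coactivator of genes for mitochondria and fatty acid oxidation. miR-103 and miR-107 come from hairpins inside the pantothenate kinase genes, whose enzymes start the synthesis of coenzyme A, and both have been linked to insulin signalling. Kidney tubules rely heavily on fatty acid oxidation. The host mRNAs were not measured on these arrays.

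The sequences of miR-103 and miR-107 are shown because the arrays had to tell them apart by a single base. They are the RefSeq mature sequences annotated on GRCm38.p6, in the 5′ to 3′ direction, with the seed (bases 2 to 8) in capitals.
mmu-miR-103: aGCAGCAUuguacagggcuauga
mmu-miR-107: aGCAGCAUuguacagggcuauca
They are equal at 22 of 23 bases and differ by G22C, with positions counted from 1 at the 5′ end, the base of miR-103 first and that of miR-107 last. Of 1679 RefSeq mature mouse miRNAs searched, these 2 were the ones with this seed. miR-103 has a pair of hairpins, Mir103-1 at chr11:35782396-35782481 on the plus strand inside Pank3 and Mir103-2 at chr2:131288052-131288137 on the plus strand inside Pank2. The hairpin of miR-107 lies at chr19:34820687-34820773 on the minus strand inside Pank1. Both miR-103 hairpins give the same mature sequence, so the array cannot say which of them a miR-103 signal came from. The hairpin of miR-378 and miR-378* lies within Ppargc1b in the same annotation, and its sequence is not shown. RefSeq also lists other miR-378 loci that the array does not name, and whether the probes bind their products was not tested.

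Related miRNAs carry the letters AGCAGC near the 5′ end, at base 1 in miR-103 and miR-107 and at base 2 in the others, and together they form a group named after miR-15 and miR-107. The other members on the array are shown with those letters in capitals, since they share part of the seed but not the rest.
mmu-miR-15a: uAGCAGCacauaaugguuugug
mmu-miR-15b: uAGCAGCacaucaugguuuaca
mmu-miR-16: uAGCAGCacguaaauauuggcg
mmu-miR-195: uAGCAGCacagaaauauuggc
mmu-miR-322: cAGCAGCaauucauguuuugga
mmu-miR-497: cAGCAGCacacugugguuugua
mmu-miR-503: uAGCAGCgggaacaguacugcag
Of the 1679 sequences, 13 (0.774%) held these letters within their first 8 bases. Outside those letters the sequences of the group are not aligned here.

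A signal is the sum over a miRNA's probes of the mean background-subtracted spot intensity, divided by the mean level of the 186 miRNAs detected on all 7 arrays. Before this scaling the mean log2 signal of those 186 miRNAs was 6.65 to 7.52 for the label non-treated and 5.79 to 6.42 for the label treated, so the scaling moves the zero of every change. Agilent's software detected 232 to 282 miRNAs per array of the label non-treated and 193 to 214 per array of the label treated. limma was fitted over 236 miRNAs, each detected throughout at least 1 label group, with an adjusted p below 0.01 as the threshold. Of these, 61 (25.8%) had a higher signal under the label treated and 82 (34.7%) a lower one, 143 (60.6%) in all, and the label groups did not overlap for 169 (71.6%). Over all those tested the median change was -0.13 on the log2 scale. It moved to -0.37 with scaling by the 75th percentile, -0.64 by the mean of all miRNAs, -0.01 with quantile normalization, -1.08 by spike-in controls, -1.28 with no scaling and 0.29 with normexp background correction. The split of higher and lower calls became 50 and 103 with the 75th percentile, 37 and 120 with the mean of all miRNAs, 18 and 172 with spike-in controls, 8 and 166 with no scaling, and 105 and 52 with normexp. All arrays lay on 1 slide and were read in 1 scan, so no such batch could be tested.

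mmu-miR-378, the strand that is usually the more abundant product of its hairpin, was higher on all arrays labelled treated, and all 4 miRNAs were detected on 7 of 7 arrays. Its scaled signals were 59.3, 68.3, 55.3 and 52.6 on non-treated replicates 1 to 4, and 209, 202 and 234 on treated replicates 1, 3 and 4. The groups did not overlap. On the log2 scale the means were 5.87 ± 0.16 (SD, n = 4) and 7.74 ± 0.11 (SD, n = 3), a log2 fold change of 1.87 (standard error 0.11), or 3.66-fold. This direction is opposite to the sign that the study gives for miR-378, miR-378* and miR-107. The reversal is not particular to them, since every miRNA that the study lists as changed was reversed by label. Examples are miR-192 at 3.24 and miR-21 at -2.18 here, which the study lists as lower and higher in obstructed kidneys. By these signs the arrays labelled treated read as the sham kidneys of the study. Ordered from the highest change to the lowest, miR-378 stood at place 11 of 236 miRNAs.

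mmu-miR-378*, the passenger strand of the same hairpin, gave weaker signals in the same order of groups. They were 11.0, 12.3, 11.4 and 13.2 on non-treated replicates 1 to 4, and 39.9, 43.3 and 39.8 on treated replicates 1, 3 and 4. No array labelled non-treated reached the lowest array labelled treated. The log2 means were 3.58 ± 0.12 (SD, n = 4) and 5.36 ± 0.069 (SD, n = 3), a log2 change of 1.78 (standard error 0.092), or 3.43-fold. It stood at place 14 of 236.

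mmu-miR-103, from Pank2 and Pank3, had nearly the same signal under both labels. Its scaled signals were 467, 470.5, 405 and 465 on non-treated replicates 1 to 4, and 409, 503 and 459.6 on treated replicates 1, 3 and 4. The groups overlapped, with the highest of the 7 values on treated replicate 3 and the lowest on non-treated replicate 3. The log2 means were 8.82 ± 0.10 (SD, n = 4) and 8.83 ± 0.15 (SD, n = 3), a difference of 0.01 (standard error 0.10) at place 96 of 236.

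mmu-miR-107, from Pank1, was higher on the arrays labelled treated. Its scaled signals were 341, 399, 305 and 362 on non-treated replicates 1 to 4, and 998, 1015 and 1060.3 on treated replicates 1, 3 and 4. The arrays labelled treated lay close together and well above the rest. The log2 means were 8.45 ± 0.16 (SD, n = 4) and 9.9998 ± 0.045 (SD, n = 3), a log2 change of 1.55 (standard error 0.10), or 2.92-fold, at place 20 of 236.

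**Figure D1:**
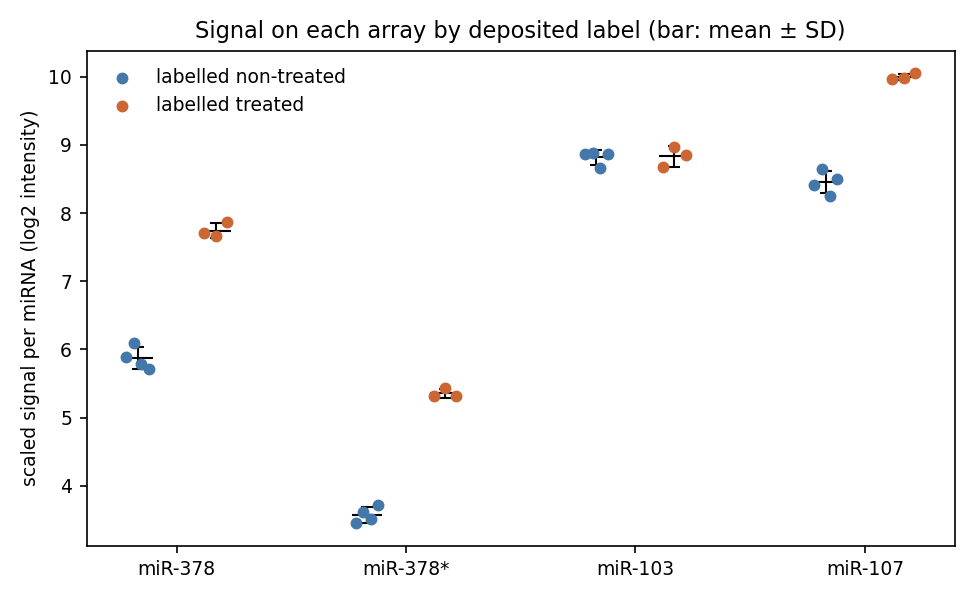
Scaled signal of each of the 4 miRNAs on every array (vertical axis, log2 intensity), with 1 point per array, coloured by deposited label, and bars for the mean ± SD (n = 4 labelled non-treated, n = 3 labelled treated). For miR-378, miR-378* and miR-107 every array labelled treated lies above every array labelled non-treated, while for miR-103 the groups overlap. Heights of different miRNAs are not comparable, since probes differ.

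By the limma threshold 3 of the 4 miRNAs were higher and 0 lower, beside 25.8% higher and 34.7% lower among all miRNAs tested. The groups did not overlap for 3 of the 4, beside 71.6% of all. The median log2 fold change of the 4 was 1.66, beside -0.13 for all miRNAs tested. The choice of the miRNAs used this same contrast, so nothing is read from these counts.

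**Figure D2:**
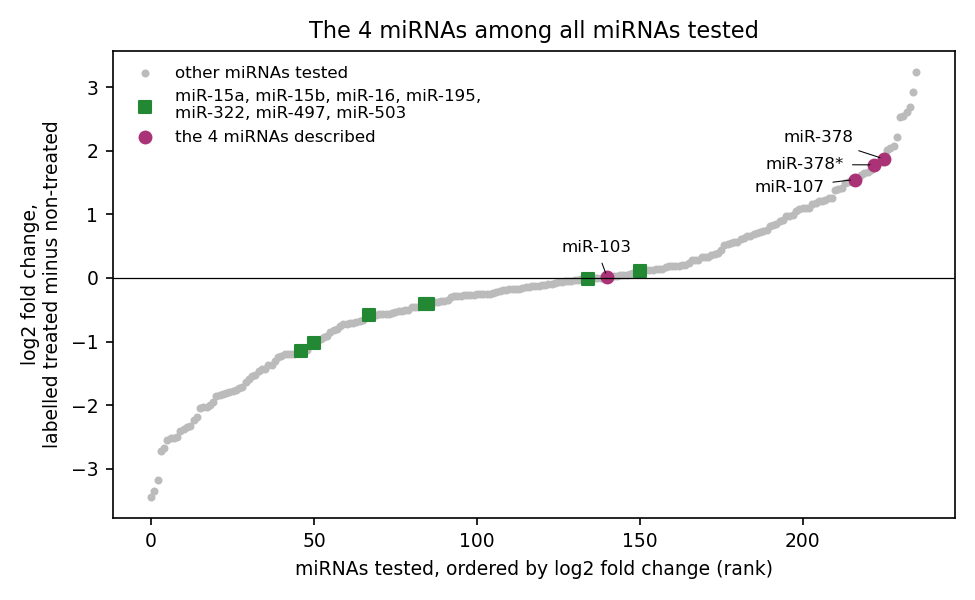
log2 fold change, labelled treated minus labelled non-treated (vertical axis), of the 236 miRNAs tested, ordered from the lowest to the highest (horizontal axis, rank). miR-378, miR-378* and miR-107 lie near the upper end at 1.87, 1.78 and 1.55, and miR-103 lies in the flat middle at 0.01, with the other members of the group of miR-15 and miR-107 between -1.15 and 0.10.

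Without scaling the values look different. Over the miRNAs detected on every array, the mean log2 signal was 6.65 to 7.52 for the label non-treated. It was 5.79 to 6.42 for the label treated, with no overlap. The mean log2 spike-in signal was 10.20 to 10.67 for the label non-treated and 10.05 to 10.58 for the label treated, with overlap. Why the miRNA signals were lower on the arrays labelled treated was not tested. Unscaled miR-378 was 93.1, 117, 51.8 and 82.9 on non-treated replicates 1 to 4 and 128, 161 and 121 on treated replicates 1, 3 and 4. Unscaled miR-107 was 535, 681, 285 and 571 on non-treated replicates 1 to 4 and 614, 811 and 546 on treated replicates 1, 3 and 4. For miR-378 the groups still did not overlap, and for miR-107 they did. Unscaled miR-378* ranged from 10.67 to 21.0 on the arrays labelled non-treated and from 20.5 to 34.6 on those labelled treated, with overlap. Unscaled miR-103 ranged from 379 to 803 and from 237 to 402, lower on the arrays labelled treated but for an overlap at non-treated replicate 3.

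The sign of the change was positive for miR-378, miR-378* and miR-107 under each of the 6 other scalings or background corrections shown in the plot by scaling, but their size was not stable. The lowest values came without scaling, where the log2 fold changes were 0.72, 0.62 and 0.39 and none of these miRNAs passed the threshold. With spike-in controls they were 0.92, 0.82 and 0.59, and miR-107 did not pass. The direction of miR-103 depended on the scaling. It was 0.01 in the setting used here, between -0.49 and -0.20 with the 75th percentile, the mean of all miRNAs, quantile normalization and normexp, and passed the threshold as lower at -0.94 with spike-in controls and at -1.14 with no scaling.

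**Figure D3:**
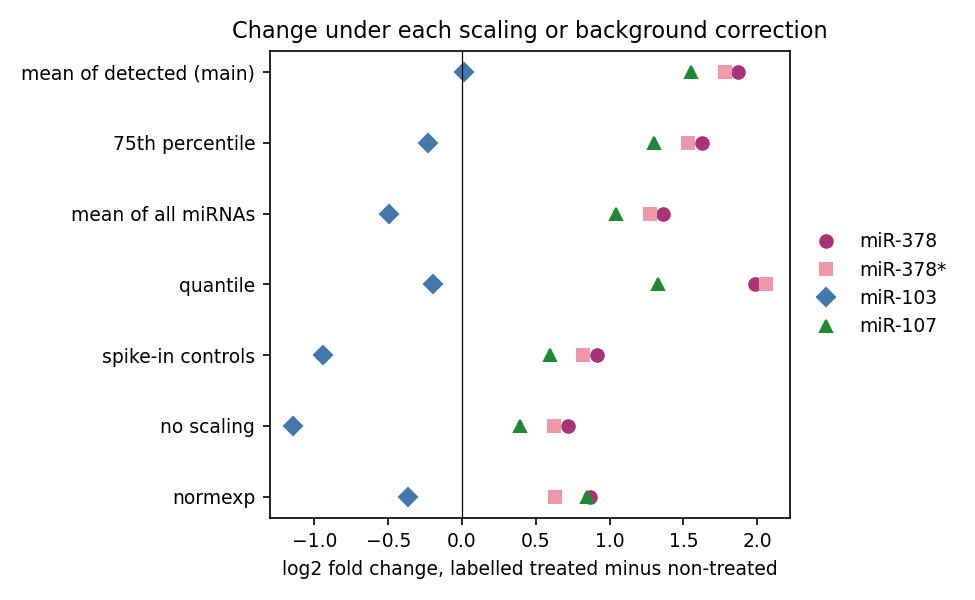
log2 fold change, labelled treated minus labelled non-treated (horizontal axis), of the 4 miRNAs under each scaling or background correction (vertical axis). miR-103 moves from 0.01 to -1.14 and the other miRNAs stay above 0, and with no scaling or spike-in controls all shift to the left together.

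A ratio of signals within an array does not depend on the scaling between arrays. The log2 ratio of miR-107 to miR-103 was -0.45, -0.24, -0.41 and -0.36 on non-treated replicates 1 to 4, and 1.29, 1.01 and 1.21 on treated replicates 1, 3 and 4. The groups did not overlap, and the difference was 1.53 (standard error 0.087). A ratio of this kind shows that the signals changed unequally and not which of them stayed still. Because probes differ in brightness, its level does not say which miRNA was more abundant. The ratio of miR-378* to miR-378, strands of the same hairpin, was -2.44, -2.47, -2.28 and -1.997 on non-treated replicates 1 to 4, and -2.39, -2.22 and -2.56 on treated replicates 1, 3 and 4. Here the groups overlapped, with a difference of -0.09 (standard error 0.15). The ratio of miR-378 to miR-107 ran from -2.78 to -2.46 under the label non-treated and from -2.33 to -2.18 under the label treated. This was a difference of 0.32 (standard error 0.091) with no overlap. Against miR-103, the differences were 1.86 (standard error 0.13) for miR-378 and 1.76 (standard error 0.090) for miR-378*.

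**Figure D4:**
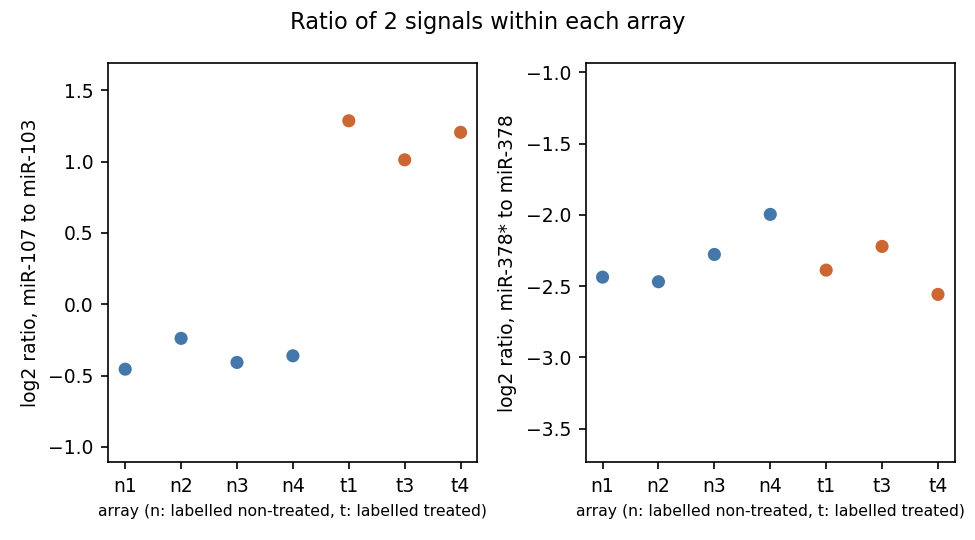
log2 ratio within each array (vertical axes) of miR-107 to miR-103 (left) and of miR-378* to miR-378 (right), with 1 point per array. The left ratio lies between -0.45 and -0.24 for the label non-treated and between 1.01 and 1.29 for the label treated, and the right ratio overlaps between the labels.

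Each miRNA was read by 2 probes of 10 spots each, and the probes of a miRNA did not always give the same change. For miR-378 the log2 fold changes of the probes were 1.89 (standard error 0.12) and 1.86 (standard error 0.11), and for miR-378* they were 1.82 (standard error 0.085) and 1.75 (standard error 0.10). These pairs lay within their errors. For miR-107 the brighter probe gave 1.40 (standard error 0.12) and the other 1.97 (standard error 0.057). The brighter miR-107 probe exceeded the other by 1.58 to 1.91 on the log2 scale under the label non-treated and by 1.16 to 1.24 under the label treated. The difference was -0.58 (standard error 0.085) with no overlap. For miR-103 the probes gave -0.04 (standard error 0.12) and 0.24 (standard error 0.075), and their ratio overlapped between the labels, with a difference of -0.28 (standard error 0.16). The files used here hold no probe sequences, and whether the miR-107 and miR-103 probes bind each other's target was not tested. For 1 of the miR-378* probes, 1 of 10 spots was well above background on non-treated replicate 3.

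**Figure D5:**
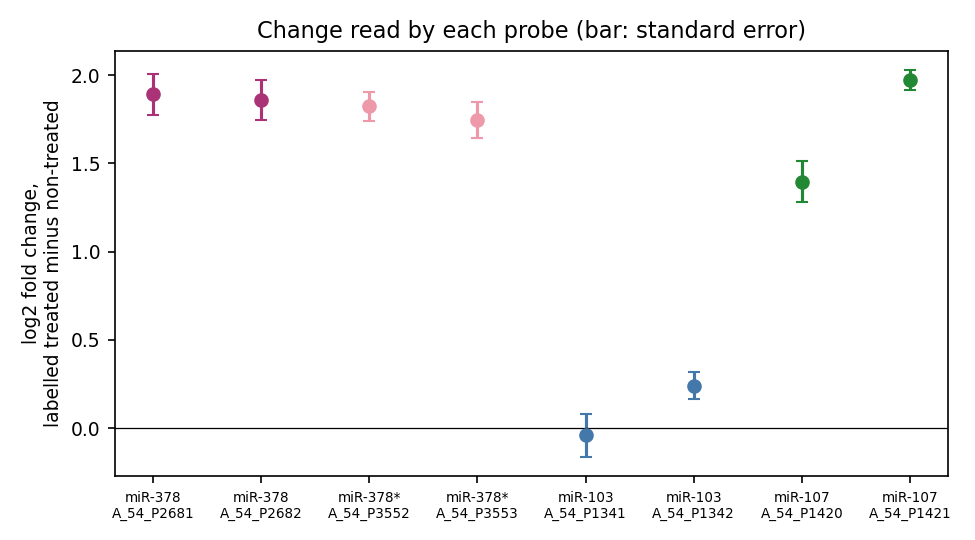
log2 fold change, labelled treated minus labelled non-treated (vertical axis), read by each of the 2 probes of the 4 miRNAs. Bars give a standard error from the spread pooled over both label groups, not from limma. The probes of miR-107 read 1.40 and 1.97, while those of miR-378 read 1.89 and 1.86.

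The miRNAs whose profile over the 7 arrays was most like that of each of the 4 were found among the 186 detected on all arrays, by the root mean square distance of log2 signals after subtracting each miRNA's own mean. These arrays share their scaling, and the label groups set most of each profile. Nearest to miR-378 were miR-2146_v15.0 (distance 0.13), miR-30e (0.17) and miR-378* (0.17), where the median distance was 0.95. Nearest to miR-378* were miR-107 (0.15), miR-29c (0.17) and miR-185 (0.17), with a median of 0.90. Nearest to miR-107 were miR-365 (0.071), miR-29c (0.083) and miR-185 (0.13), with a median of 0.80. The log2 fold changes of these neighbours ran from 1.49 for miR-29c to 2.07 for miR-30e. miR-103 stood apart from the other 3, with miR-27b (0.067), miR-34a (0.082) and let-7a (0.083) nearest and a median of 0.34. Those neighbours had log2 fold changes of -0.0033, 0.015 and 0.013. In the order of nearness to miR-103, miR-107 came at place 150 of 185, although it differs from miR-103 by a single base.

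Of the 7 other miRNAs of the group of miR-15 and miR-107, 6 were detected on every array, and of these 0 were higher and 4 lower by the limma threshold, beside 25.8% higher and 34.7% lower among all miRNAs tested. Their median log2 fold change was -0.41, beside -0.13 for all. With miR-503, which was tested although only 2 of the 3 arrays labelled treated detected it, 5 of 7 were lower. That count fell to 2 without non-treated replicate 4, treated replicate 1 or treated replicate 4, and to 3 without non-treated replicate 1 or 2. With no scaling and with spike-in controls 7 of 7 were lower, and with normexp 1 was higher and 6 lower. miR-497, a miRNA of the miR-15 family, had the lowest at -1.15 (standard error 0.14, limma adjusted p = 8.06e-05), and miR-195, made from the same cluster, fell by 1.03 (standard error 0.12, limma adjusted p = 9.76e-05). The highest was miR-15a at 0.10 (standard error 0.095, limma adjusted p = 0.362), which did not pass, as did not miR-16 at -0.02. The other calls among those detected everywhere were for miR-15b and miR-322, at -0.41 and -0.40. miR-15a turned negative under each other scaling, down to -1.05 with no scaling. Summed over the list, the log2 signal was 11.92 to 12.15 on the arrays labelled non-treated and 11.68 to 11.70 on those labelled treated.

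Of 23 other miRNAs with a copy inside a protein-coding gene, 19 were detected on every array. Of these 5 were higher and 7 lower, near the 25.8% and 34.7% among all miRNAs tested, with a median of -0.10. The counts became 1 higher and 14 lower with no scaling, 2 and 14 with spike-in controls, and 5 and 9 with normexp. The highest was miR-30e, in Nfyc, at 2.07 (standard error 0.089, limma adjusted p = 3.90e-07). The lowest was miR-342-3p, in Evl, at -2.52 (standard error 0.10, limma adjusted p = 3.13e-07). Of 10 miRNAs linked to lipid or glucose metabolism, 7 were detected on every array, and of these 1 was higher and 3 lower, beside the same shares among all, with a median of -0.17. The higher one was miR-33, in Srebf2, which acts on cholesterol export, at 1.70 (standard error 0.19, limma adjusted p = 7.17e-05). Its mean log2 signal on the arrays labelled non-treated was 1.87 ± 0.38 (SD, n = 4), near the log2 floor of 0.99. miR-143, a miRNA of smooth muscle that also acts in adipocytes, had the lowest value among those detected on all arrays, at -1.05 (standard error 0.10, limma adjusted p = 3.18e-05). Of that list, miR-122 and miR-370 were not detected on any array, and miR-375 was not detected on any array labelled treated, so it is left out of these counts. Over the 8 tested, miR-375 included, 0 were higher and 7 lower with no scaling and with spike-in controls. With normexp 2 were higher and 4 lower.

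Markers of some cell types differed between the labels and those of others did not. In whole kidney, fewer cells of a type and less RNA per cell cannot be told apart. The counts below stand beside 25.8% higher and 34.7% lower among all miRNAs tested. They hold for the scaling used here, which sets the zero of every change, and were not counted under the other scalings. Of 4 tubule miRNAs 3 were higher and 1 (miR-204) lower, and their summed log2 signal was 10.66 to 10.94 on the arrays labelled non-treated and 12.43 to 12.46 on those labelled treated. The 2 red cell miRNAs found on the array were higher, with sums of 10.08 to 11.19 and 12.17 to 12.32. All 4 leukocyte miRNAs were lower, with sums of 10.06 to 10.45 and 8.04 to 8.17, and all 3 mesenchymal miRNAs were lower, with sums of 11.05 to 11.30 and 8.62 to 8.68. Of 2 endothelial miRNAs 0 passed, with sums of 10.79 to 10.93 and 10.80 to 10.89. Of 4 striated muscle miRNAs 2 were tested and 0 passed, with sums of 4.23 to 5.83 and 4.26 to 4.36, and miR-206 was not detected on any array, nor was the liver miRNA miR-122. The tubule markers mark the labelled tissue and were detected on all arrays. The part of these cell types in the values of miR-378, miR-378*, miR-103 and miR-107 was not tested.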

How the data were processed

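Per the labels, total RNA came from mouse kidneys through the RecoverAll kit and was read on Agilent miRNA arrays. The authors deposited the output of the scanner software (Agilent Feature Extraction, version 10.7.3.1), whose processed signal is a linear spot intensity with the background subtracted, not normalized between arrays. Each array held 13920 spots for 1937 probes of 696 miRNAs, and none was saturated. A deposited table of processed values, checked against the scanner output, was used as an alternative.

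Spots flagged as outliers were dropped, spots were averaged per probe, probes summed per miRNA, and arrays scaled by the mean log2 level over 186 miRNAs, those detected on all 7 arrays. Scaled intensities below 1.99 were set to that floor. limma 3.58.1 in R 4.3.3 compared the labels over 236 miRNAs with Benjamini-Hochberg adjustment. This comparison, but not the steps before it, was tried on simulated log2 signals of equal spread. Arrays hold no read depth, so their number limits the precision. Named are the 4 miRNAs, the 3 miRNAs with the nearest profile to each, and the highest and lowest of each list among miRNAs detected on every array. The other members of the group of miR-15 and miR-107 are named so that all 7 are accounted for. The miRNAs and lists were chosen with earlier results of these data known. Sequences and hairpin positions are those of RefSeq on GRCm38.p6. The array design names an older build, so positions of host genes are not given. Alternatives covered scaling, background correction, signal column, probe summary, floor, filter, test, the replicate number and each array left out. PCR, serum and human measurements were not analysed here.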

Additional observations from a re-analysis of the deposited data

Results flagged for a closer look

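For the 4 arrays labelled non-treated, 9 measures were examined for a value far from the others. The measures come from the same arrays and are not independent. Of them, 3 held a value past the limit of Dixon's ratio, where chance alone flags about 5% of single measures. All 3 concerned non-treated replicate 3. Its log2 scaled signal of miR-103 was 8.66, below the other arrays labelled non-treated. Over the miRNAs detected everywhere its mean log2 signal was 6.65, and its mean log2 spike-in signal was 10.20, both the lowest of the arrays labelled non-treated. Without this array the log2 fold change of miR-103 was -0.04, and those of miR-378, miR-378* and miR-107 were 1.84, 1.76 and 1.48.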

How the results depend on the processing

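The log2 fold changes of miR-378, miR-378* and miR-107 were above 0 under each alternative run, but with no scaling none of these passed the threshold, and with spike-in controls miR-107 did not. For miR-378, miR-378*, miR-103 and miR-107 in that order, the log2 fold changes were 1.62, 1.53, -0.23 and 1.30 with the 75th percentile, 1.36, 1.27, -0.49 and 1.04 with the mean of all miRNAs, 0.72, 0.62, -1.14 and 0.39 with no scaling, 0.92, 0.82, -0.94 and 0.59 with spike-in controls, and 0.87, 0.63, -0.37 and 0.85 with normexp. Quantile normalization gave 2.06 for miR-378*, -0.20 for miR-103 and 1.32 for miR-107. miR-107 was 1.68 with the mean of log2 probe signals and 1.40 with the deposited table. Single probes, chosen after seeing the data, gave 1.40 and 1.97 for miR-107 and 0.24 for 1 probe of miR-103. The difference between miR-107 and miR-103 was 1.22 with normexp and 1.34 with the deposited table. In that table the column of treated replicate 4 holds error estimates, and without it, an alternative chosen after seeing the data, the values were 1.55 for miR-107 and 1.46 for the difference. Why the other values moved was not tested.

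With no scaling 1 of the 4 miRNAs passed the threshold, miR-103 as lower. With spike-in controls 3 passed, miR-378 and miR-378* as higher and miR-103 as lower. Over all miRNAs 59 passed with the deposited table and 84 with Bonferroni adjustment, against 143. Of the group of miR-15 and miR-107, 5 passed in the setting used and 7 with no scaling, with spike-in controls and with normexp. The number was 3 with Agilent's summed signal and with the methods' t-test after Benjamini-Hochberg adjustment. It was 2 with the deposited table, with no detection filter, with Bonferroni adjustment and with the replicate block. The methods' t-test gave 56 higher and 84 lower without adjustment. Without that column the deposited table gave 1.93 for miR-378*, 0.11 for the difference of miR-378* and miR-378, 89 miRNAs past the threshold and 2 of the group of miR-15 and miR-107. A higher floor, also chosen after seeing the data, gave 55 higher and 75 lower.

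Leaving out each array in turn gave 1.81 to 1.95 for miR-378, 1.74 to 1.83 for miR-378*, -0.06 to 0.09 for miR-103, 1.48 to 1.61 for miR-107, 1.47 to 1.61 for miR-107 minus miR-103, -0.18 to 0.0056 for miR-378* minus miR-378, 128 to 162 miRNAs past the threshold, 3 of the 4 each time, and 2 to 4 of the group of miR-15 and miR-107, the lowest count without non-treated replicate 4, treated replicate 1 or treated replicate 4. Same-numbered arrays of both labels did not deviate together, with correlations over 186 miRNAs of -0.00057, -0.02 and 0.19 for numbers 1, 3 and 4, so the numbers were not taken as pairs. With the replicate block the 4 log2 fold changes were 1.95, 1.79, 0.03 and 1.61, and 127 miRNAs passed.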

Other observations

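In 6 columns of the deposited table of processed values, each value equalled the processed intensity of a probe's first spot, within a relative tolerance of 1e-05, so neither a log nor any scaling or centring had been applied. The medians of these columns were 0.445, 0.532, 0.47 and 0.346 for non-treated replicates 1 to 4 and 0.322 and 0.276 for treated replicates 1 and 3. The column of treated replicate 4 held the error estimate of that spot instead, with a median of 1.0008.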
